A study of Mus musculus with 12 samples.

Results

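Astrocytes isolated from the brains of 5 Bmal1 astrocyte knockout mice were compared with astrocytes from 3 wild-type mice. Bmal1 (official symbol Arntl) encodes a transcription factor that pairs with CLOCK to drive the circadian clock through E-box elements, and its targets include its own repressors of the Period, Cryptochrome and REV-ERB families. Astrocytes hold cell-autonomous clocks, take up neurotransmitters, buffer ions and supply lipids, and respond to injury with changes in secreted and immune genes. The members are all isolated-astrocyte libraries of the series, chosen by title: 8 of 12 libraries, the other 4 being cells that passed through the column.

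All 8 animals were 7 months old, on a C57BL/6 background, and carried the floxed Bmal1 alleles named Bmal fl/fl in the strain field, which also names ALDH1L1-CreERT2. Animals of both groups received 2 mg of tamoxifen a day by gavage on 5 days at 2 months of age, so tamoxifen and the floxed alleles are common to both groups. WT stands for the libraries titled wild type (201, 202 and 265) and aKO for those titled knockout (203, 205, 208, 221 and 222). The genotype field gives 201 and 265 as Cre-negative and all 5 aKO libraries as Cre-positive, and in Cre-positive animals the Aldh1l1 promoter drives a tamoxifen-dependent Cre recombinase. The Cre transgene and the loss of Bmal1 therefore cannot be told apart in this comparison. Cells were held by magnetic beads against ACSA-2, an epitope of the astrocyte protein encoded by Atp1b2. Each number is taken to stand for 1 animal. The labels of library 202 disagree, with WT in the title and Cre-positive knockout under genotype, so its Cre status is in dispute. Here it counts as WT, and no gene passed the threshold when it was counted as aKO. In that fit 803 genes (edgeR, 4.04%) had an unadjusted p under 0.05, beside 1.58% with 202 as WT.

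Total counts ran from 21816637 to 62655238 per library. Mitochondrially encoded genes took 11.1% to 36.5% of the counts, and Ttr, the main transcript of choroid plexus, took 1.20% to 17.0% in WT and 1.69% to 10.5% in aKO. All 20 astrocyte markers on the list used here had enough counts to be tested, and their summed normalized CPM (read count scaled to library size) was 5892 to 21558 in WT and 8088 to 15773 in aKO. Pairs of libraries of the same genotype correlated across genes with r of 0.877 to 0.956 (median 0.933), and pairs of different genotype with r of 0.882 to 0.966 (median 0.928), so genotype did not order the libraries as a whole. On the first principal component, which held 34.2% of the variance, aKO 222 and WT 265 stood apart from the other 6 libraries. Without both of them 3 genes passed instead of 5. In bulk RNA, fewer cells of a type and less RNA per cell cannot be told apart.

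Arntl itself was measured at 3.05, 7.76 and 2.54 CPM (WT 201, 202 and 265) and 9.86, 19.1, 9.17, 11.5 and 6.36 CPM (aKO, in the order given above). Its log2 difference was 1.33 (SE 0.47; edgeR adjusted p = 0.9997). WT 202 lay above aKO 222, so the groups overlapped. The gene count includes exons outside the floxed part and so checks neither the deletion nor the labels.

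Of 18950 genes tested, 5 (0.0264%) passed the threshold, a Benjamini-Hochberg adjusted p under 0.05 in the quasi-likelihood test of edgeR. Spon2, Cxcl5, Oas2 and Hebp2 rose (4 genes, 0.0211%) and Rpe65 fell (1 gene, 0.00528%) in aKO astrocytes. These genes encode a secreted matrix protein, a chemokine, an antiviral enzyme, a heme-binding protein and a retinoid isomerase. No pair of them shares a gene list used here, but the lists were chosen with earlier results of these data known.

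Promoter sequence from RefSeq on GRCm38.p6, from 250 bases before to 50 after the start, was found for 2 of the 5 genes. Both are shown because these are the genes whose change passed the test. Capitals mark any match, on either strand, to the letters searched: the E-box CACGTG, the E-box-like CACGTT, the D-box TTANGTAA, the RORE half-site AGGTCA, the interferon-stimulated response element, the NF-kB motif and the TATA box TATAAA. Matches of different motifs could overlap.
Rpe65, chr3:159598931-159599230, plus strand: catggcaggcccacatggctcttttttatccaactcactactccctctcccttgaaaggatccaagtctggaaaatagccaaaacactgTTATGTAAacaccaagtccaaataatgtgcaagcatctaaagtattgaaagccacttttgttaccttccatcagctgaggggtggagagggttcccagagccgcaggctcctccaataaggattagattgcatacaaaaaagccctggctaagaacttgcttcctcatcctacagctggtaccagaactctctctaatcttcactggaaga
Hebp2, chr10:18546027-18546326, minus strand: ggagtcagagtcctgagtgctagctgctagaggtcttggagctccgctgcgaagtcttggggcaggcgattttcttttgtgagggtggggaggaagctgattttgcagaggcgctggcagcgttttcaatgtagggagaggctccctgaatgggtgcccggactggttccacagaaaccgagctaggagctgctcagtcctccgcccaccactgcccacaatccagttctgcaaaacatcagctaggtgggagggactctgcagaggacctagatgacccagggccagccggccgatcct
The Rpe65 window held 1 D-box match, beginning 161 bases before the start, and the Hebp2 window held none of these motifs. D-boxes are bound by the PAR-domain factors DBP, TEF and HLF and by the repressor NFIL3. Among all 32851 RefSeq promoters of 300 bases, 2.32% held the D-box letters, 7.15% the E-box, 4.68% the E-box-like, 16.3% the RORE half-site, 3.44% the interferon element, 50.8% the NF-kB motif and 13.6% the TATA box. Of the 30 genes named for groups apart or the threshold, 23 had an entry. The E-box was found in those of Slc41a3, 213 bases before the RefSeq start, and Cpsf4l, 143 bases before 1 of its starts. The Slc41a3 window, 90618996 to 90619295, lies inside the gene as counted here, which begins at 90604725. E-box-like or RORE half-site letters were found in others, among them Nat8f5, Mfsd2a, Fabp7 and Steap3. A match is a description of the sequence and not a site.

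Spon2, the secreted spondin family protein mindin, was measured at 1.06, 2.28 and 0.0480 CPM in WT 201, 202 and 265. It stood at 83.4, 53.5, 100.4, 117 and 56.4 CPM in aKO 203, 205, 208, 221 and 222. The lowest aKO library lay 23.5 times above the highest WT library. The change was 6.15 on the log2 scale (SE 0.80; edgeR adjusted p = 0.00760). On the deposited RPKM scale, which also divides by gene length, its mean level was above 19.6% of tested genes in WT and above 92.7% of them in aKO.

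Cxcl5, a chemokine that attracts neutrophils, was measured at 0.640, 2.86 and 0.480 CPM (WT) and 67.5, 21.6, 27.3, 59.8 and 24.6 CPM (aKO). Libraries 203 and 221 were the highest, and the nearest libraries of the groups differed by 7.56 times. The log2 fold change was 4.91 (SE 0.69; edgeR adjusted p = 0.0152), and it went to 6.13 without WT 202.

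Oas2, the interferon-induced oligoadenylate synthetase whose product activates RNase L, had the narrowest WT group of the 5 genes, at 1.48, 1.58 and 1.39 CPM. The aKO libraries held 13.3, 10.7, 16.2, 13.5 and 24.7 CPM, with aKO 222 the highest. Its log2 fold change was 3.40 (SE 0.41; edgeR adjusted p = 0.00760).

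Hebp2, a heme-binding protein, was measured at 3.54, 4.17 and 3.50 CPM (WT) and 32.2, 13.4, 19.3, 37.8 and 26.0 CPM (aKO). The lowest aKO library, 205, was 3.22 times above the highest WT library. The change was 2.78 on the log2 scale (SE 0.41; edgeR adjusted p = 0.0201).

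Rpe65, the isomerase that regenerates the visual chromophore precursor in retinal pigment epithelium, was the only gene that fell past the threshold. It was measured at 17.2, 12.4 and 17.0 CPM (WT) and 1.12, 1.26, 0.645, 1.92 and 0.219 CPM (aKO). The log2 fold change was -3.88 (SE 0.50; edgeR adjusted p = 0.00760). Of the 7 tested markers of retinal and leptomeningeal pigment cells, Rpe65 among them, 5 had estimates above 0, and the summed list took 26.5 to 50.8 CPM in WT and 21.8 to 34.4 CPM in aKO.

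**Figure D1:**
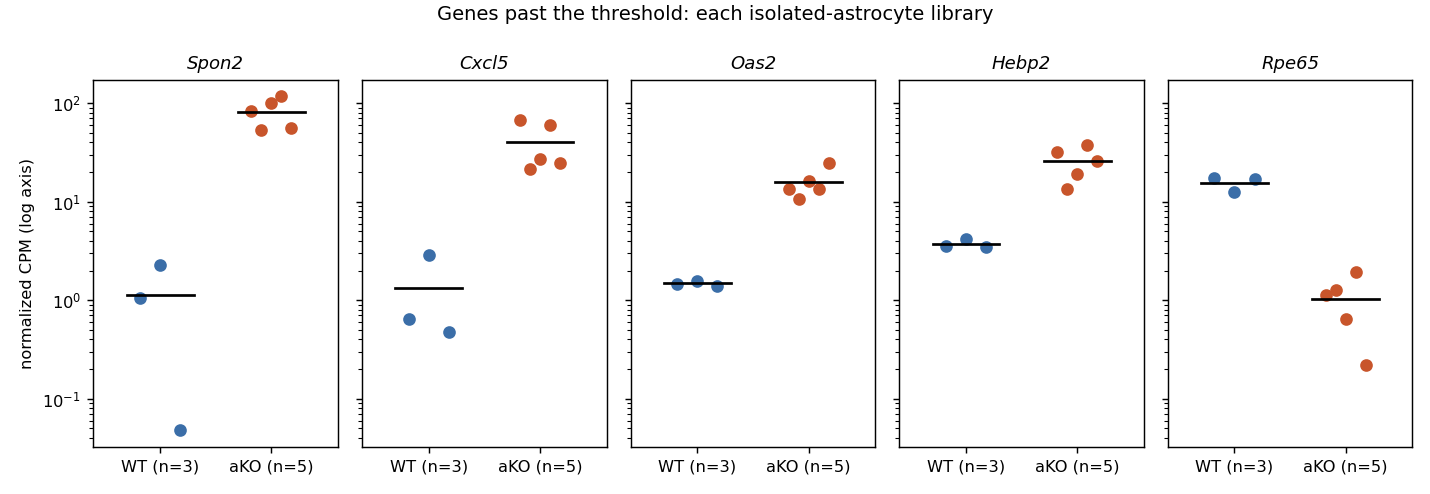
Normalized CPM on a log axis of the 5 genes past the threshold in each WT (blue) and aKO (orange) library, with the group mean as a black bar. In every panel the groups are apart, by 3.22 times between nearest libraries for Hebp2 and by 23.5 times for Spon2.

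Of 21 alternatives of processing, Oas2 passed under 19. Spon2 and Rpe65 each passed under 17, Cxcl5 under 15, and Hebp2 under 13. Without WT 201 no gene passed (401, or 2.05%, at an unadjusted p under 0.05). Without aKO 205 only Oas2 and Hebp2 did, and without WT 265 Oas2, Rpe65 and Spon2 did. Without WT 202, aKO 203 or aKO 221 Hebp2 did not pass and the other 4 did, and the log2 change of Spon2 went to 7.04 without WT 202 and to 5.63 without WT 265.

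The same animals' column flowthrough, measured for WT 201 and 202 and aKO 203 and 205, gives levels in cells not held (deposited CPM). Flowthrough still held astrocyte markers, unequally, with sums of 716 and 6755 CPM in WT and 2134 and 408 CPM in aKO. The astrocyte fractions of these animals held 12217 and 18902 CPM in WT and 16710 and 11767 CPM in aKO. Flowthrough values therefore do not stand for cells other than astrocytes alone. Spon2 was at 0.337 and 1.78 in WT and at 3.14 and 0 in aKO flowthrough, against 88.3 and 70.2 in the astrocytes of the same 2 aKO animals. Rpe65 was at 0.360 and 4.44 in WT and at 0.130 and 0.0303 in aKO flowthrough. Cxcl5 was at 0.0225 and 0.470 in WT and at 3.69 and 0.121 in aKO flowthrough. Oas2 was at 0.427 and 0.967 in WT and at 3.58 and 1.39 in aKO flowthrough. Hebp2 was at 5.21 and 2.69 in WT flowthrough, beside 4.05 and 3.65 in the astrocytes of these animals. In aKO it was at 12.2 and 3.57 in flowthrough and at 34.1 and 17.6 in astrocytes.

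With these 5 included, the groups did not overlap for 266 genes (1.4% of those tested), 176 of them higher (0.929%) and 90 lower (0.475%) in aKO. This count includes small differences: 132 of the 266 differed by less than 2-fold, and 148 had an unadjusted p of 0.05 or more. Conversely, 181 of the 299 genes with an unadjusted p under 0.05 (1.58%) had overlapping groups, and so did 818 of the 952 genes that differed by at least 2-fold. Of the 56 ways to split the libraries into groups of these sizes, 1 puts all aKO libraries above WT and 1 all below. Labels unrelated to expression would thus leave 1 in 56 genes apart in each direction on average. The shares of 0.929% and 0.475% lie below that, so groups apart do not by themselves point to genotype. The 1.58% with an unadjusted p under 0.05 is likewise below the share of 0.05 that unrelated labels would give. The median change of the 266 genes was 1.02 in absolute log2 units. A gap of at least 0.5 on the log2 CPM scale between the nearest libraries was left for 41 genes, of at least 1 for 10 and of at least 2 for 4, which were Spon2, Cxcl5, Oas2 and Rpe65. No single library set the edge of the gaps: among the 176 higher genes, WT 201, 202 and 265 were the highest WT library for 60, 62 and 54. Among the aKO libraries, 208 and 222 were the lowest for 46 and 45 of these genes, and 205 and 221 for 24 each.

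**Figure D2:**
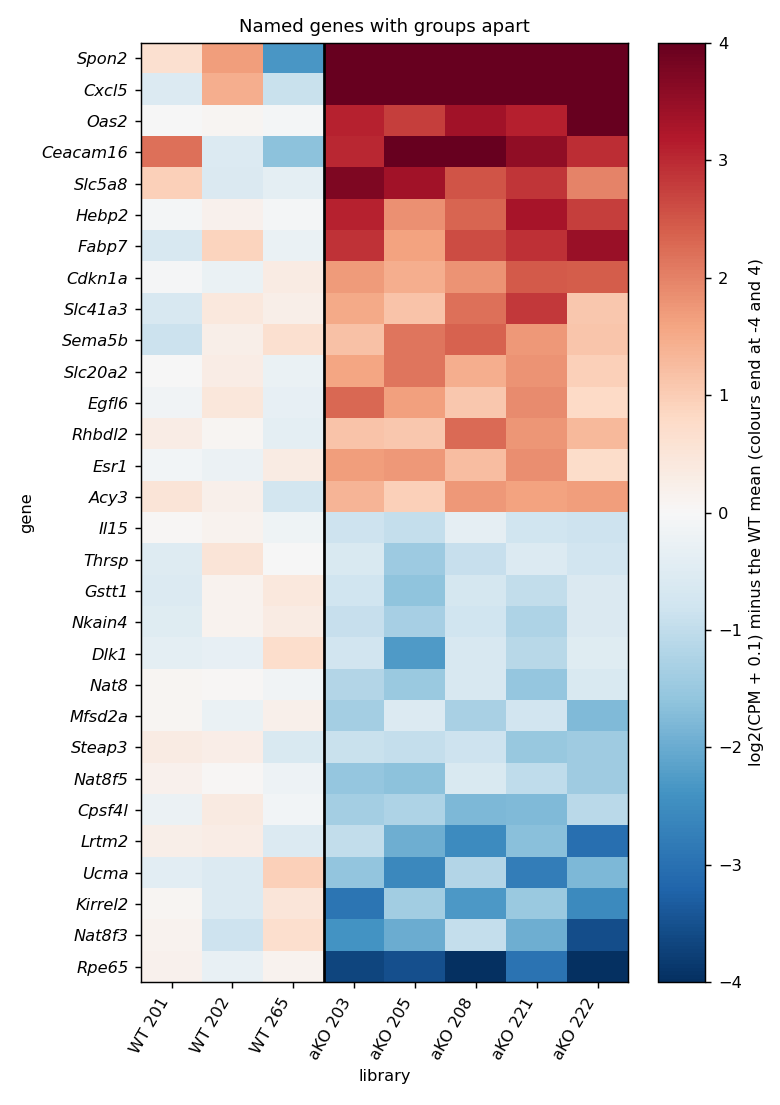
Heatmap of the 30 named genes with groups apart (rows) in the 8 libraries (columns), as log2(CPM + 0.1) minus the WT mean, with colours ending at -4 and 4. The black line parts WT from aKO libraries, and the size of the change in a row differs among aKO libraries, as for Dlk1 between aKO 205 and aKO 222.

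Cdkn1a, the cyclin-dependent kinase inhibitor p21, came closest to the threshold among genes that did not pass. It was measured at 21.3, 18.3 and 27.7 CPM (WT) and 72.3, 61.1, 77.2, 120.5 and 120.1 CPM (aKO), with a gap of 2.21 times between the nearest libraries. Its log2 fold change was 2.01 (SE 0.39; edgeR adjusted p = 0.328). Of the 26 tested p53 targets and arrest genes, Cdkn1a alone had an unadjusted p under 0.05, and the list's median was 0.14 beside 0.02 over all genes.

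Slc5a8, a sodium-coupled carrier of lactate, pyruvate and butyrate, had the next smallest p. It was measured at 1.52, 0.456 and 0.528 CPM (WT) and 10.8, 8.39, 4.66, 5.90 and 3.18 CPM (aKO), a log2 difference of 2.93 (SE 0.57; edgeR adjusted p = 0.328). All aKO libraries lay at least 2.10 times above all WT libraries.

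Fabp7, the brain fatty acid-binding protein of radial glia and astrocytes, was the most abundant of the named genes that were higher in every aKO library. It was measured at 181, 529.8 and 238 CPM (WT) and 2125, 861, 1714, 2162 and 3114 CPM (aKO). The nearest libraries, WT 202 and aKO 205, differed by 1.62 times. The log2 fold change was 2.66 (SE 0.60; edgeR adjusted p = 0.842), and Fabp7 passed with DESeq2 and with limma voom. No other of the 18 tested genes of lipoproteins and lipid transport had groups apart or an unadjusted p under 0.05.

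Several more membrane and signalling genes were higher in every aKO library without passing. Slc20a2, a sodium-dependent phosphate importer, was measured at 28.9, 36.3 and 24.5 CPM (WT) and 88.5, 131, 80.1, 102 and 56.9 CPM (aKO). Esr1, the estrogen receptor alpha, was measured at 2.60, 2.40 and 3.55 CPM (WT) and 9.22, 9.67, 6.68, 10.5 and 4.72 CPM (aKO). Sema5b, an axon guidance semaphorin, was measured at 1.25, 2.80 and 3.70 CPM (WT) and 5.45, 10.8, 12.4, 8.12 and 5.26 CPM (aKO). Their log2 fold changes were 1.62 (SE 0.38), 1.52 (SE 0.40) and 1.72 (SE 0.47). Rhbdl2, a rhomboid protease, had 1.58 (SE 0.42), Acy3, an aminoacylase, 1.41 (SE 0.38), and Egfl6, a secreted protein with EGF repeats, 1.62 (SE 0.41). Ceacam16, a protein known from the tectorial membrane of the inner ear, had 3.13 (SE 0.80) with WT libraries at 4.05, 0.517 and 0.192 CPM and aKO libraries at 6.96 to 26.0 CPM, and its estimate went to 5.29 without WT 201. Slc20a2 overlaps Smim19 and Ceacam16 overlaps Gm19345, so their counts are less certain.

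Wif1, a secreted inhibitor of Wnt ligands, was measured at 0.599, 1.58 and 0 CPM (WT) and 5.80, 2.89, 5.57, 14.4 and 3.24 CPM (aKO). Wif1 was chosen after its values were seen. Pfkfb3, an activator of glycolysis, was measured at 14.0, 10.95 and 8.31 CPM (WT) and 32.1, 34.6, 17.5, 24.4 and 17.9 CPM (aKO). The other 25 tested genes of glycolysis, glycogen and lactate had overlapping groups, and the list's median log2 fold change was 0.02.

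Among genes lower in every aKO library, Ucma, a secreted Gla-rich protein known from cartilage, was measured at 27.0, 24.5 and 69.8 CPM (WT) and 12.0, 5.89, 15.8, 5.24 and 10.4 CPM (aKO). Lrtm2, a leucine-rich repeat membrane protein, was measured at 22.9, 24.2 and 13.4 CPM (WT) and 9.78, 4.91, 3.34, 6.01 and 2.30 CPM (aKO). Kirrel2, a nephrin-like adhesion protein, was measured at 5.94, 3.802 and 7.83 CPM (WT) and 0.649, 2.10, 1.05, 1.95 and 0.877 CPM (aKO). The log2 differences of these 3 genes were -2.04 (SE 0.43), -1.94 (SE 0.42) and -2.12 (SE 0.47), with edgeR adjusted p-values of 0.613, 0.745 and 0.808.

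Mfsd2a, the carrier of lysophosphatidylcholine with docosahexaenoic acid, was measured at 33.2, 26.0 and 36.4 CPM (WT) and 12.3, 21.5, 12.7, 18.5 and 9.27 CPM (aKO). Nkain4, a partner of the sodium pump, was measured at 255, 395 and 443 CPM (WT) and 188, 143, 202, 151 and 237 CPM (aKO). Thrsp, a thyroid-responsive regulator of lipogenesis, was measured at 104, 214 and 147 CPM (WT) and 96.2, 53.8, 78.8, 101 and 86.4 CPM (aKO). For Nkain4 and Thrsp the nearest libraries differed by only 1.08 and 1.03 times, and Nkain4 overlaps Gm14341. Gstt1, a glutathione transferase, had -0.94 (SE 0.36), Steap3, a metal reductase, -1.18 (SE 0.36), Cpsf4l, a relative of a polyadenylation factor, -1.51 (SE 0.43), and Dlk1, a Notch-related membrane protein, -1.04 (SE 0.44) on the log2 scale.

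The Nat8 family of N-acetyltransferases lies together on chromosome 6, from 85706727 to 85933379 on GRCm38. This group was chosen after its values were seen. All 9 tested genes of the cluster had estimates below 0, beside 8905 of 18950 over all genes. Of the 9, 4 (Nat8, Nat8f3, Nat8f5 and Nat8f7) had groups apart and lower, beside 0.475% over all genes. Nat8 was measured at 21.8, 21.4 and 18.7 CPM (WT) and 8.9995, 7.22, 13.2, 7.02 and 13.3 CPM (aKO). Nat8f5 was measured at 21.0, 19.0 and 15.9 CPM (WT) and 6.32, 5.92, 12.1, 9.22 and 6.91 CPM (aKO). Nat8f1, the most abundant, was measured at 104, 126 and 194 CPM (WT) and 83.6, 66.0, 121, 89.6 and 142 CPM (aKO), so its groups overlapped. The genes are near copies of each other and Nat8f5 overlaps Nat8f6, so the counting could split reads between them and these values are uncertain. Nat8l, a relative on chromosome 5, had a log2 difference of 0.05 (SE 0.36).

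Slc41a3, of a magnesium transporter family, starts 4522 bases after the end of Aldh1l1, whose promoter drives the Cre. It was measured at 2.42, 5.17 and 4.51 CPM (WT) and 11.1, 8.59, 18.1, 28.1 and 8.28 CPM (aKO), a log2 difference of 1.89 (SE 0.48; edgeR adjusted p = 0.9997). In GRCm38, Aldh1l1 lies on chromosome 6 from 90486427 to 90600203 and Slc41a3 from 90604725 to 90646412. The other 5 tested genes within 300 kb of Aldh1l1 had overlapping groups. Of these, Cfap100, a cilia and flagella associated protein, had the smallest p, at -0.76 (SE 0.33; unadjusted p = 0.037 and adjusted p = 0.9997 by edgeR). Klf15, a Kruppel-like factor, had -0.57 (SE 0.39) and Iqsec1, an exchange factor, 0.12 (SE 0.31). Aldh1l1 itself was measured at 109, 208 and 32.2 CPM (WT) and 117, 78.6, 33.5, 85.2 and 22.3 CPM (aKO). All aKO animals carry the Cre transgene, and its part in the level of Slc41a3 was not tested. Around Arntl, on chromosome 7, Btbd10, Far1 and Rassf10 had estimates of 0.09 (SE 0.35), 0.31 (SE 0.36) and -0.14 (SE 0.70).

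Across chromosomes, the share of tested genes with groups apart ran from 0.493% on chromosome 19 to 2.17% on chromosome 13 among the autosomes, beside 1.4% over all genes. Spon2, Cxcl5 and Oas2 all lie on chromosome 5, far from each other, at 33213518 to 33218238, 90759299 to 90761625 and 120730333 to 120749853. The share on that chromosome was 1.46%.

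Effect sizes were largest, and least certain, at low expression. Among the 3284 genes with a mean log2 CPM under 0, the median size of the log2 fold change was 0.46 and the median SE 0.81. Among the 4575 genes from 4 to 6, these medians were 0.17 and 0.37, the smallest of any class. Both then grew again, to 0.26 and 0.50 in the 434 genes at 8 and over. In each class the typical change was smaller than its error.

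**Figure D3:**
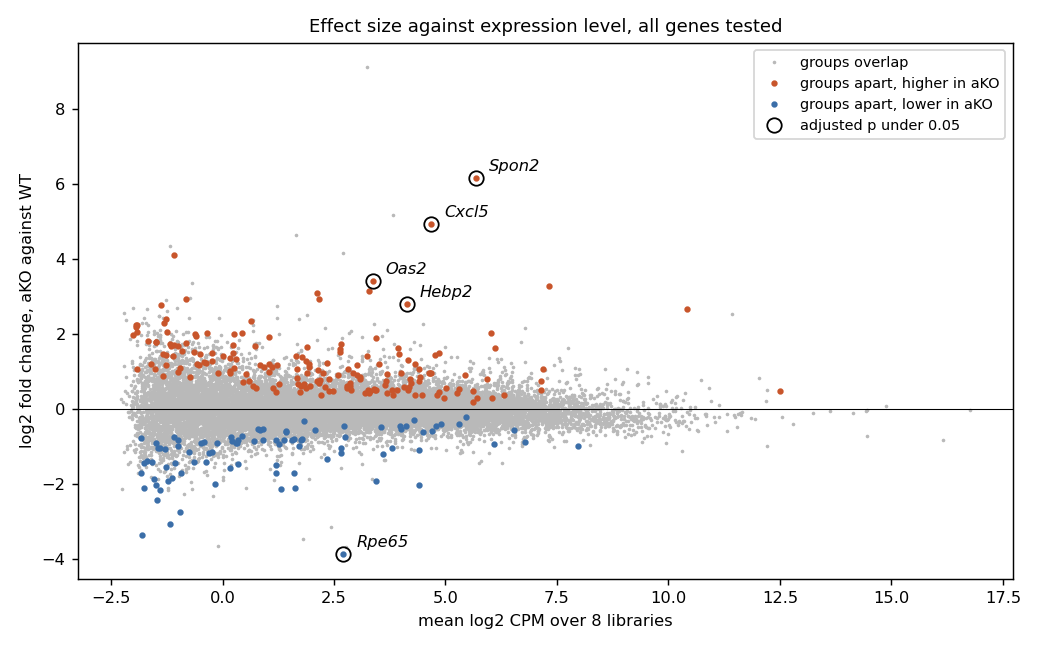
Log2 fold change against mean log2 CPM for the 18950 genes tested, with groups apart in orange (176 higher) and blue (90 lower) and overlapping groups in grey. Circles mark the 5 genes past the threshold, all between a mean log2 CPM of 2 and 6.

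The share of genes with groups apart was lower at each step in expression, from 2.34% under 0 to 1.89%, 1.13%, 0.94%, 0.81% and 0.461% at 8 and over. The share with an unadjusted p under 0.05 went from 1.92% to 0.461% over the same classes. The 5 genes past the threshold lay in the classes from 2 to 4 (Oas2 and Rpe65) and from 4 to 6 (Spon2, Cxcl5 and Hebp2). In the lowest class, C2cd4b, CK137956 and Alox12b had gaps of more than 1 on the log2 CPM scale, and were chosen after their values were seen. C2cd4b was measured at 0.0278, 0 and 0.0960 CPM (WT) and 0.389, 1.14, 0.469, 0.274 and 0.987 CPM (aKO). At such levels a library holds few reads of the gene.

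**Figure D4:**
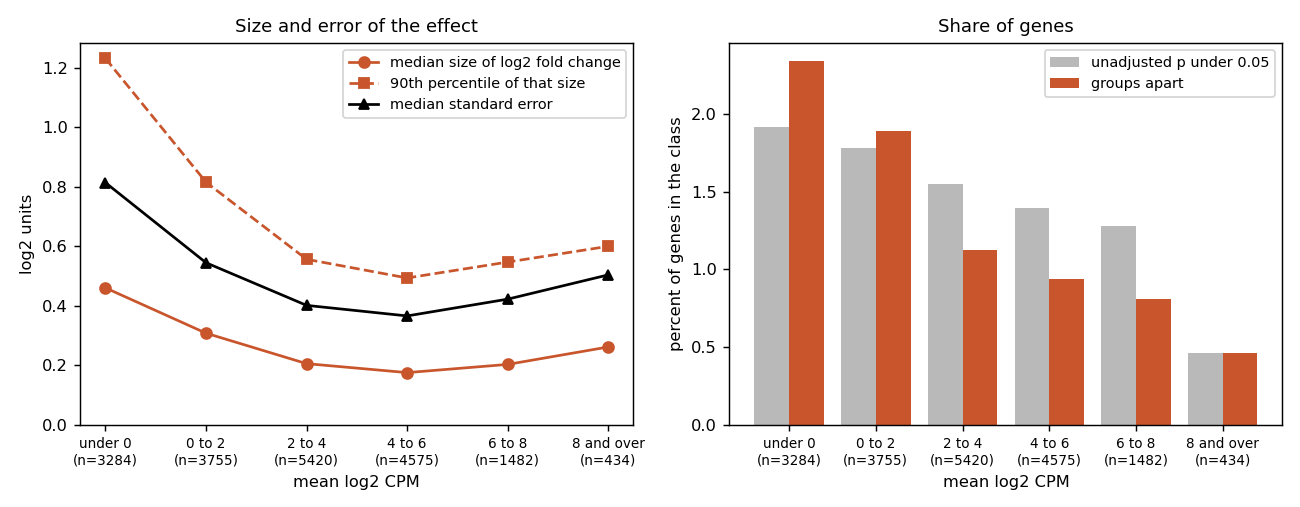
Left, the median and 90th percentile of the size of the log2 fold change and the median standard error, in log2 units, for 6 classes of mean log2 CPM. Right, the percent of genes in each class with an unadjusted p under 0.05 (grey) and with groups apart (orange), both lowest at 8 and over.

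Among abundant genes, with a mean log2 CPM of at least 6, several of the largest estimates rested on a single library. Zrsr1, an imprinted splicing factor-like gene inside Commd1, was at 1053 CPM in aKO 203 and at 28.5 to 57.2 CPM in the other aKO libraries, against 23.4 to 26.9 CPM in WT. Pde6g, an inhibitory subunit of the photoreceptor phosphodiesterase, was at 753 CPM in aKO 222 and at 0.631 to 11.5 CPM in the other aKO libraries. All 3 WT libraries lay above those 4, at 25.2 to 52.7 CPM, and without aKO 222 the log2 fold change of Pde6g turned from 2.15 to -2.29. Summed pineal markers moved with it, at 452 CPM in aKO 222, 5.98 to 35.7 CPM in the other aKO libraries and 14.9 to 69.6 CPM in WT, and their part in the result was not tested.

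Fth1, the ferritin heavy chain, was measured at 649, 560.2 and 860.5 CPM (WT) and 4004, 4382, 458, 10146 and 785 CPM (aKO), so 208 lay below the WT range and 222 within it. H2-D1, a class I antigen-presenting chain, and Rpl13, a ribosomal protein, were highest in aKO 221, at 387 and 857 CPM. Plat, tissue plasminogen activator, was measured at 141, 111 and 29.8 CPM (WT) and 395, 171, 185, 399 and 56.2 CPM (aKO). Slc17a9, the vesicular nucleotide carrier, was at 277 CPM in aKO 222 and between 16.8 and 67.1 CPM in the other 4.

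In the other direction, Hsd11b1, which reactivates glucocorticoids, was measured at 126, 188 and 68.2 CPM (WT) and 49.5, 33.1, 70.4, 39.2 and 39.4 CPM (aKO). Only WT 265 and aKO 208 overlapped, and the log2 fold change was -1.46 (SE 0.39; edgeR adjusted p = 0.9997). Etnppl, a phospholyase of astrocytes, was measured at 162, 231 and 61.3 CPM (WT) and 126, 81.5, 60.2, 82.3 and 33.3 CPM (aKO). The remaining abundant genes with the lowest estimates, Lars2, Mir6236, Cox6b2, Tmem212, 1110017D15Rik and 1700001C02Rik, were all highest in WT 265. Tmem212 belongs to the ependymal markers, whose sum was 3640.1 CPM in WT 265, 991 to 1868 CPM in the other WT libraries and 666 to 2506 CPM in aKO. Without WT 265 the estimate of Tmem212 went from -0.96 to 0.05.

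The largest estimate of all, 9.11 (SE 2.92) for Igha, an immunoglobulin heavy chain, came from 3 libraries. Igha was at 20.3, 10.9 and 44.1 CPM in aKO 203, 205 and 208, at 0 and 0.110 CPM in aKO 221 and 222, and at 0 to 0.0480 CPM in WT. Jchain, the joining chain of secreted antibodies, was at 36.7 CPM in aKO 208, at 0.0548 to 5.80 CPM in the other aKO libraries and at 0 to 1.24 CPM in WT. Both were chosen after their values were seen. Summed leukocyte markers took 86.7 to 408 CPM in WT and 86.4 to 347 CPM in aKO, and their part was not tested. In flowthrough, deposited CPM of Igha was 86.4 and 102 in WT and 88.0 and 40.9 in aKO. Xist, the X-inactivation RNA, had 2044 counts in aKO 221, 972 in aKO 222 and 6 to 46 in the other 6 libraries. Those 2 libraries therefore differ from the rest in a marker of female cells. Xist, Tsix and the Y-linked Ddx3y, Uty, Kdm5d and Eif2s3y together took 59.9 and 59.8 CPM in them. The other 6 libraries held 97.2 to 202 CPM of this sum with little Xist, so mostly from the Y-linked genes. Both Xist-high libraries are aKO, and the highest Xist count in WT was 32, so sex-linked genes were not balanced between the groups. The part of sex in the differences was not tested. Without aKO 221 and 222, 7 genes passed, including all 5 named above.

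By function, 45 lists of processes and cell markers were counted beside the whole set, where 10045 of 18950 estimates lay above 0 and the median was 0.02. No list had more than 1 member past the threshold. Of 36 tested interferon-stimulated genes, Oas2 passed, 27 estimates lay above 0 and the median was 0.32, which went to -0.02 without aKO 221 and 222. Oas1a, its paralog, was measured at 4.93, 2.13 and 0.960 CPM (WT) and 4.41, 3.47, 7.30, 8.75 and 8.01 CPM (aKO), with overlap. Eif2ak2, the antiviral kinase PKR, was the other member with groups apart and lay lower in aKO, at 21.4, 17.6 and 17.8 CPM (WT) and 13.9, 14.0, 13.4, 14.9 and 12.8 CPM (aKO), though it overlaps Gm26637.

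Of 20 tested chemokines, Cxcl5 passed, 9 estimates lay above 0 and the median was -0.14. The neutrophil chemokine Cxcl1 had -0.91 (SE 0.70) and Cxcl2 0.06 (SE 0.56). Of 31 secreted matricellular proteins, Spon2 passed and the median was -0.02. Its relative Spon1 had 0.56 (SE 0.39). Of 26 heme and iron genes, Hebp2 passed, and the median was 0.10. Its paralog Hebp1 had -0.45 (SE 0.49), and Hmox1, which breaks down heme, 0.53 (SE 0.40). Of 24 retinoid genes, Rpe65 passed. Lrat, which supplies retinyl esters to Rpe65 in the eye, was higher in every aKO library, at 0.320, 0.760 and 0.240 CPM (WT) and 1.12, 1.35, 1.38, 4.28 and 0.877 CPM (aKO). In each of these 5 lists the other members lay on both sides of 0.

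**Figure D5:**
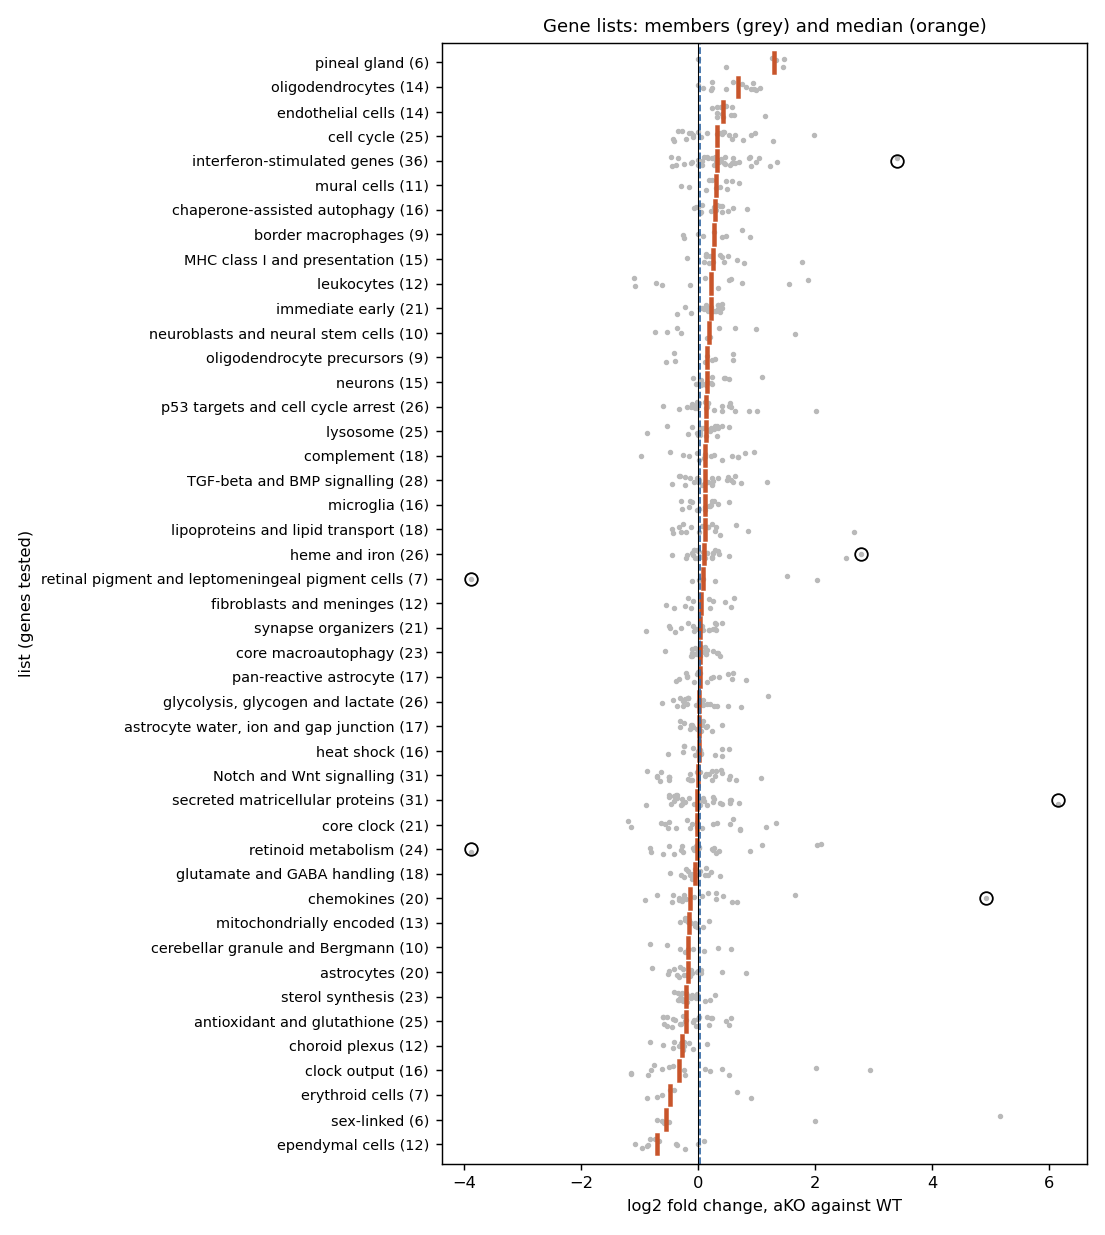
Log2 fold change of every tested member (grey points) of the 45 lists, with the number tested in brackets, the list median (orange bar) and the median of all genes (dashed blue line). Black circles mark members past the threshold, all of them far from their list's median.

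In the core clock list, 0 of 21 tested genes passed, 9 estimates lay above 0 and the median was -0.03. At an unadjusted p under 0.05 there were 4 of the 21 (19.0%, beside 1.58% over all genes), Arntl and Npas2 with higher and Nr1d1 and Per3 with lower estimates in aKO. Clock, the partner of BMAL1, was the only member with groups apart, at 12.9, 11.8 and 13.5 CPM (WT) and 17.6, 29.0, 14.1, 19.996 and 14.8 CPM (aKO), and it was named after its values were seen. Npas2, which can replace CLOCK, was measured at 4.62, 9.03 and 5.09 CPM (WT) and 14.1, 24.1, 10.5, 14.2 and 6.53 CPM (aKO). Nr1d1, which encodes the repressor REV-ERB alpha, was measured at 128, 128 and 32.9 CPM (WT) and 54.2, 38.6, 42.7, 58.4 and 17.4 CPM (aKO). Per3 was measured at 107, 32.7 and 50.8 CPM (WT) and 26.0, 51.6, 25.6, 27.8 and 11.1 CPM (aKO). WT 265 lay within the aKO range for Nr1d1, and Nr1d1 shares exon sequence with Thra, so its count is less certain. Of 16 clock output genes, 0 passed, 10 estimates lay below 0 and the median was -0.34. At an unadjusted p under 0.05 there were 4 of the 16 (25%), Cdkn1a and Slc5a8 with higher and Per3 and Chil1 with lower estimates. Per3 stands on both lists. Both lists were chosen with earlier results of these data known, so these shares are only descriptions. Chil1, a chitinase-like glycoprotein, was measured at 71.8, 119 and 32.4 CPM (WT) and 33.6, 25.4, 41.7, 26.8 and 41.0 CPM (aKO).

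Counted by symbol, solute carriers had 8 of 311 tested genes with groups apart (2.57%, beside 1.4% over all genes), 7 of them higher in aKO. Besides those above, Slc35f2 had 1.06 (SE 0.47), and Slc44a3, the lower one, -0.83 (SE 0.47). Interleukins and their receptors had 5 of 51 genes apart (9.8%). Il15, a cytokine of natural killer and T cells, was measured at 9.10, 9.89 and 7.83 CPM (WT) and 4.93, 4.57, 6.97, 5.13 and 4.94 CPM (aKO). Il18, an inflammasome-processed cytokine, was also lower in every aKO library, at 96.8, 133 and 120.3 CPM (WT) and 76.7, 64.4, 84.2, 77.9 and 91.4 CPM (aKO). The receptor genes Il17rd, Il17rb and Il13ra1 were higher, with 1.22 (SE 0.41), 1.18 (SE 0.57) and 0.60 (SE 0.37). These 5 differences are small or at low counts, and none passed.

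Zinc finger genes had 14 of 438 apart (3.2%) but only 2 (0.457%) at an unadjusted p under 0.05. Of 43 collagens 2 were apart (4.65%, beside 1.4% over all genes), among them Col16a1 at 1.28 (SE 0.44). Of 57 metalloproteinases and inhibitors 2 were apart (3.51%), among them Mmp14, a membrane-bound collagenase, at 1.48 (SE 0.46). Mmp14 was measured at 11.5, 9.67 and 19.6 CPM (WT) and 26.7, 77.5, 37.0, 21.5 and 26.5 CPM (aKO). Rnf144b, a ubiquitin ligase, was measured at 5.46, 4.26 and 9.22 CPM (WT) and 13.4, 16.5, 13.04, 13.2 and 15.5 CPM (aKO). Cytosolic ribosomal protein genes, pseudogenes included, had 0 of 241 apart and 200 estimates below 0, with a median of -0.24, and nuclear subunits of complexes I to V had 88 of 117 below 0, with a median of -0.31. These sets share libraries and vary together, so their counts are descriptions. The shares apart of solute carriers, zinc finger genes and metalloproteinases lie below the 2 in 56 that unrelated labels would give on average. Those of interleukins and collagens lie above it, but rest on 5 and 2 genes. More families were counted than are described here, so a share above it in some of them carries no weight by itself.

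Markers of other brain cells were counted in the same way. Oligodendrocyte markers had 13 of 14 estimates above 0 and a median of 0.67, and their sum was 4621 to 14704 CPM in WT and 4884 to 21438 CPM in aKO. Endothelial markers had 14 of 14 above 0 and a median of 0.42, with sums of 1031 to 1306 CPM in WT and 1189 to 1929 CPM in aKO. Ependymal markers had 11 of 12 below 0 and a median of -0.70, which went to 0.04 without WT 265. Astrocyte markers had 16 of 20 below 0 and a median of -0.18, which went to 0.15 without WT 202. None of these members passed or had groups apart. Rgs5, a mural cell marker, did have groups apart, at 120.0, 90.6 and 125 CPM (WT) and 128, 136, 153, 172 and 198 CPM (aKO). With the oligodendrocyte sum as a covariate the 5 genes passed together with Cdkn1a, Ifit3b and Lrtm2, and with the choroid plexus sum the same 5 genes passed. The part of cell makeup in the other differences was not tested.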

How the data were processed

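RNA was sequenced from 8 isolated-astrocyte and 4 flowthrough libraries, amplified with a SMARTer kit. The genome was GRCm38, and the tools named are featureCounts 1.4.6-p5 from Subread, STAR 2.5.1a and bcl2fastq, per the submitters' processing notes. Strand setting, annotation release and handling of reads with several matches are not given in the sources used here. Overlapping genes and near copies are therefore uncertain. The deposited count is the authors' whole number of reads per Ensembl gene. The deposited CPM is that count scaled by the authors to the library total, and the deposited RPKM is the CPM scaled to gene length. Each file lists 41388 genes, and those without a name held 0.0782% to 0.103% of the counts.

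Counts were fitted in edgeR 4.0.16 (R 4.3.3; TMM, filterByExpr with a minimum count of 10 and a minimum total of 15, robust quasi-likelihood), with p-values adjusted over all genes tested. Text values are TMM-normalized CPM, and gaps use log2 CPM (prior count 2). Groups are apart where all aKO libraries lie above all WT libraries, or all lie below them. The SE is the log2 fold change divided by the root of the F statistic. The fit was tested on simulated data. Alternatives were other size factors and filters, DESeq2 1.42.0, limma 3.58.1 voom, covariates, and libraries left out or relabelled. The labels do not say outright that each number is a separate animal, so p-values measure only the spread between these libraries.

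The members, lists and rule for names were chosen with earlier results of these data known. The rule took Arntl, Aldh1l1 and the genes past the threshold. It added, for each direction, the 15 genes of smallest p with groups apart, an official symbol and mean log2 CPM no lower than 1, and the 10 largest changes where mean log2 CPM was no lower than 6. It added up to 4 members of smallest p in a list described. Other members of lists, neighbours of Aldh1l1 and Arntl, and Igha, Jchain, Clock, Wif1, the Nat8 relatives, the interleukin genes, Mmp14, Col16a1, Rnf144b, Slc35f2, Slc44a3, Smad9, C2cd4b, CK137956 and Alox12b were named after their values were seen. Some genes that the rule names are not reported here.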

Additional observations from a re-analysis of the deposited data

Results flagged for a closer look

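In 13 of 84 groups of aKO libraries examined, the highest or lowest library lay farther from the others than Dixon's 95% limit. Chance passes that limit in about 1 of 20 groups that were not chosen by their values. The 84 are the genes followed here, many named for large changes or after their values were seen, and CPM was used without logs. The 13 therefore cannot be read as an excess over chance. The aKO library 221 was the highest for H2-D1 at 387 CPM (next 133), Rpl13 at 857 CPM (next 241), Lrat at 4.28 CPM (next 1.38), Wif1 at 14.4 CPM (next 5.80) and Slc35f2 at 6.99 CPM (next 3.66). The aKO library 222 was the highest for Pde6g at 753 CPM (next 11.5) and Slc17a9 at 277 CPM (next 67.1), and the lowest for Smad9 at 2.25 CPM (next 3.28). The aKO library 205 was the highest for Il17rd at 10.6 CPM (next 5.95) and Mmp14 at 77.5 CPM (next 37.0). The aKO library 208 was the highest for Il15 at 6.97 CPM (next 5.13) and Jchain at 36.7 CPM (next 5.80), and aKO 203 was the highest for Zrsr1 at 1053 CPM (next 57.2). None of the 5 genes past the threshold was among these 13.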

How the results depend on the processing

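The 5 genes past the threshold kept their direction under all 21 alternatives. The number that passed was 8 with no count filter, 15 with DESeq2 and 8 with the oligodendrocyte covariate. It was 1 with all 12 libraries in the fit (334, or 1.62%, at an unadjusted p under 0.05) and 0 with library 202 as aKO. It was 3 without aKO 222 and WT 265 together, an alternative chosen after seeing the data, and 0 to 5 when 1 library was left out. The number of genes with groups apart was 443 with no count filter, 1013 with library 202 as aKO (93 of the 266 among them), 744 without aKO 221 and 222, 1587 without aKO 222 and WT 265, and 359 to 1186 when 1 library was left out. Fewer libraries overlap less by construction. With library 202 as aKO all 8 libraries stay, but the WT group is smaller. Labels unrelated to expression would then also leave a larger share of genes apart. Counts from changed groups therefore cannot be compared with 266, and the 1013 do not show which label of 202 is right. Among 84 genes followed, 78 never turned sign. Aldh1l1 went to 0.37 with library 202 as aKO. Pde6g went to -2.33 with voom, -1.90 without aKO 221 and 222, -0.0763 with the oligodendrocyte covariate, -1.87 without aKO 222 and WT 265, and ranged from -2.29 (without aKO 222) to 2.56 (without WT 265) when 1 library was left out. With 1 library left out, Mir6236 ranged from -1.63 to 0.24, Lars2 from -1.39 to 0.25, Tmem212 from -1.38 to 0.0523 and 1700001C02Rik from -1.36 to 0.0198, each highest without WT 265. For these the cause was not tested. Of 45 list medians, 36 turned sign under some alternative. No paired analysis was possible because the WT and aKO animals share no number.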
